A study of Rattus norvegicus with 12 samples.

Results

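Rat liver cells kept beside human amniotic epithelial cells (hAEC) were compared with the same kind of cells kept beside human amniotic mesenchymal stromal cells (hAMSC), within the 2 sets into which the libraries fell. The comparison holds 8 of the 12 libraries of the series, 4 with hAEC (numbered 3, 4, 11 and 12 in the labels) and 4 with hAMSC (7, 8, 15 and 16). Libraries 3, 4, 7 and 8 form set A and libraries 11, 12, 15 and 16 form set B, so that each set holds 2 libraries of each co-culture. The sets are not named by the labels: they were chosen by the first principal component of the expression values of these libraries. The difference between the sets is therefore not a result.

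The cells were labelled primary hepatic stellate cells and were isolated on a gradient from livers of rats with cirrhosis that long inhalation of carbon tetrachloride had caused. Each co-culture lasted 24 h, with 15000 viable human cells in a Transwell insert, whose porous membrane passes soluble products but not cells. The 4 vehicle libraries (17 and 18 in set A, 19 and 20 in set B) came from cirrhotic rats as well, so no group holds cells of a healthy liver. They served as a reference level and added to the estimate of the spread. Whether the 4 libraries of a group stand for different rats, or different dishes, is not in the labels. The p-values therefore measure the spread between libraries alone, and that spread may be technical.

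Epithelial cells of the amnion line the fetal side of the membrane, and the mesenchymal stromal cells lie in the connective tissue beneath. Both release soluble factors that act on immune cells and on scar-forming cells, and both have been studied as cell therapy for fibrosis. In the cirrhotic liver, macrophages take up debris and lipid, bind antibody-coated particles through Fc receptors, and exchange signals with stellate and endothelial cells.

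Total counts of the 8 libraries ran from 27553187 to 34922211. The first principal component of the 2000 most variable genes held 88.4% of their variance and parted set A from set B in 12 of 12 libraries. The biological coefficient of variation was 38.9% without the set in the model and 9.91% with it. Because the sets were chosen by the first principal component, neither the split nor this fall is a result. Macrophage genes were abundant in every library: Cd68, which marks macrophage lysosomes, ran from 1606 to 1681 CPM (counts scaled to library size) in the 8 libraries. The 16 macrophage markers measured, of 17 listed, summed to 9625 to 10120 CPM in set A and 22170 to 23440 CPM in set B. The stellate cell genes Acta2, the smooth muscle actin, and Lrat, which stores retinoid, were at most 3 and 0.371 CPM. The stellate cell lists were not as low in sum over the 8 libraries. Contractile genes summed to 1056 to 2377 CPM, genes of stellate cell quiescence to 378.4 to 476.1 CPM and matrix genes to 2239 to 2812 CPM. The median members of these 3 lists were at 1.82, 0.643 and 1.69 CPM. By Cd68, Acta2 and Lrat the data go against the labelled cell type, and the values below are taken as those of a mixed sample. In such bulk samples, fewer cells of a type and less RNA per cell cannot be told apart.

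With the set in the model, 3 of 13539 genes differed between the co-cultures (0.0222% of genes tested) by the quasi-likelihood test of edgeR with Benjamini-Hochberg adjustment, and all 3 were lower with hAEC than with hAMSC. They were Pcsk1, Vcan and Fcgr2b. No gene was called higher with hAEC, and 862 genes (6.37% of genes tested) had an unadjusted p under 0.05 in either direction. In each of the 3, the hAEC libraries lay near the vehicle libraries and the hAMSC libraries lay above both. The 3 were chosen for hAMSC above hAEC, which favours hAMSC above vehicle as well. Their tests of hAMSC against vehicle, given below, reuse the same hAMSC libraries and are not separate evidence. The same limit holds for other genes named by small p and then set against vehicle. The count rested on single libraries: it was 0 without hAEC 3, hAMSC 8 or hAMSC 15, 1 without hAEC 4, hAEC 12 or hAMSC 16, 5 without vehicle 19 and 50 (17 higher, 33 lower) without hAMSC 7. With the same data a fit that was not robust called 0 and DESeq2 called 79, the 3 genes among them.

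Vcan encodes versican, a large chondroitin sulfate proteoglycan of provisional matrix that binds hyaluronan. It was the only member of the extracellular matrix list to pass. Its upstream sequence is shown because Vcan was among the genes that passed. The 250 bases before the more upstream of its 2 annotated starts (RefSeq, build GRCr8, chr2:22595956-22596205, minus strand, 5′ to 3′), read from a newer build than that of the deposited counts, are all in lower case because the motif described further on was not in this window.
Vcan: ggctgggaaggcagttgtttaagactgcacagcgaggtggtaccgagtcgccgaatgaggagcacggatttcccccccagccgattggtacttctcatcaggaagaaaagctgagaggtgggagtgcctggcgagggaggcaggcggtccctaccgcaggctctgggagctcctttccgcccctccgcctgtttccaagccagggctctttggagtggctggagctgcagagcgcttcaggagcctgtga

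Vcan was at 63.05 and 59.48 CPM with hAEC and at 92.96 and 84.95 CPM with hAMSC in set A, where vehicle was at 60.43 and 61.7 CPM. In set B it was at 13.76 and 13.05 CPM with hAEC, 17.76 and 15.84 CPM with hAMSC, and 12.07 and 14.25 CPM with vehicle. Every hAMSC library stood above every hAEC and vehicle library of its set. The log2 difference, hAEC minus hAMSC, was -0.45 (SE 0.063) (edgeR adjusted p = 0.0176). It was -0.54 within set A and -0.33 within set B, where neither passed alone. Against vehicle the hAMSC libraries were higher by 0.46 (edgeR adjusted p = 0.00496) and the hAEC libraries differed by 0.01 (edgeR adjusted p = 0.992). These last 2 comparisons share the vehicle libraries. The call of Vcan was lost without hAEC 3 (adjusted p = 0.0897 by edgeR), hAEC 4 (0.119), hAEC 12 (0.0932), hAMSC 8 (0.0933) or hAMSC 15 (0.0511), while the log2 difference over all fits that left out 1 library stayed between -0.49 and -0.39.

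Pcsk1 encodes a proprotein convertase that cuts prohormones and other secreted precursors at paired basic residues. Its level in set A was 201.5 and 204 CPM with hAEC, 245.5 and 245.9 CPM with hAMSC, and 198.3 and 187 CPM with vehicle. Set B was lower in all 3 groups, at 19.37 and 21.64 CPM with hAEC, 27.4 and 26.14 CPM with hAMSC, and 19.06 and 20.24 CPM with vehicle. In neither set did the hAEC and hAMSC libraries overlap. The log2 difference was -0.32 (SE 0.043, edgeR adjusted p = 0.0176), at -0.28 in set A and -0.38 in set B, and it passed within set B alone (edgeR adjusted p = 0.0111). Against vehicle Pcsk1 rose with hAMSC by 0.39 on the log2 scale (edgeR adjusted p = 0.00173), beside 0.07 with hAEC, which did not pass. The call was lost without hAEC 3 (edgeR adjusted p = 0.0897), hAEC 4 (0.0567), hAMSC 8 (0.0673), hAMSC 15 (0.0511) or hAMSC 16 (0.051), with log2 differences of -0.34 to -0.30 across those fits.

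Fcgr2b encodes the inhibitory Fc receptor for immunoglobulin G, which dampens activation of macrophages and B cells by immune complexes. In set A it was at 1707 and 1674 CPM with hAEC, 1929 and 1932 CPM with hAMSC, and 1696 and 1634 CPM with vehicle. The set B values were 260.8 and 262.2 CPM with hAEC, 377 and 362.9 CPM with hAMSC, and 257.8 and 272.1 CPM with vehicle. The hAMSC libraries were the highest 2 of each set. The log2 difference of -0.35 (SE 0.053, edgeR adjusted p = 0.0420) was made up of -0.19 in set A and -0.50 in set B, and passed within set B (edgeR adjusted p = 0.000159). Against vehicle the hAMSC libraries rose by 0.35 (edgeR adjusted p = 0.0130), and the hAEC libraries differed by less than 0.01. Of the 12 fits that left out 1 library, the call held without hAMSC 7 (0.00496) and without vehicle 19 (0.0382). It was lost without hAEC 3, 4, 11 or 12, hAMSC 8, 15 or 16, or vehicle 17, 18 or 20, with edgeR adjusted p-values between 0.0586 and 0.235. Fc receptor genes are close relatives, and reads that fit several of them were shared out by the estimate, an uncertainty that the test does not hold.

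**Figure D1:**
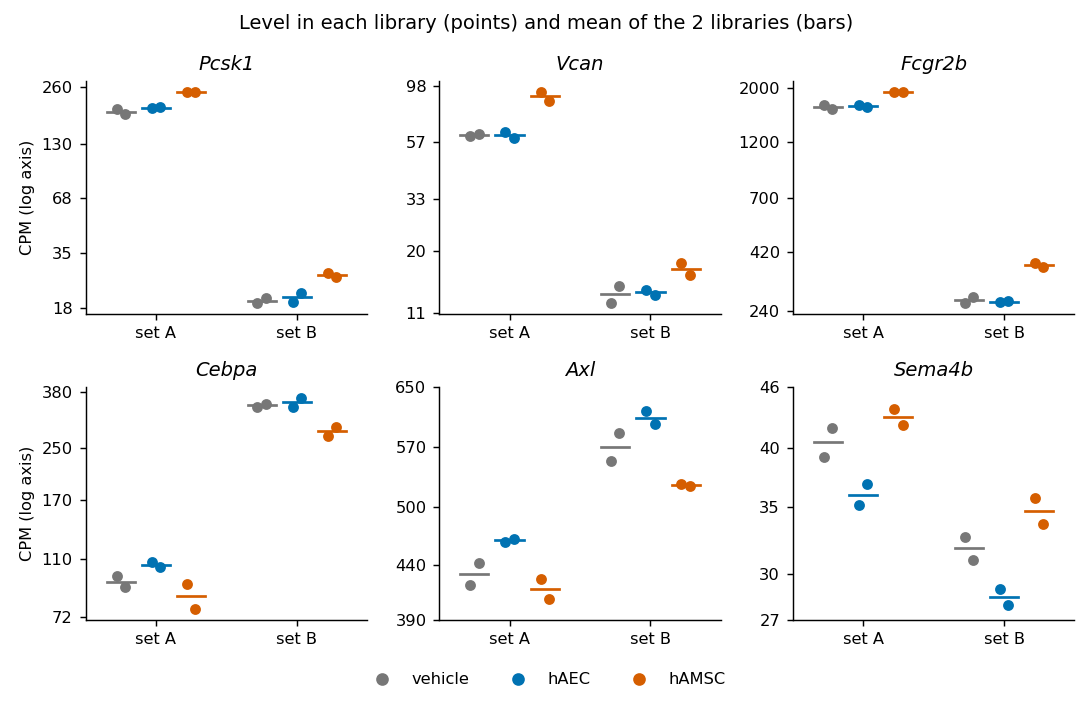
Level of 6 genes in each library, in CPM on log axes, by library set and group (points), with the mean of the 2 libraries (bars). Pcsk1, Vcan and Fcgr2b, which passed, have their hAMSC libraries above the hAEC libraries in set A and in set B. Cebpa, Axl and Sema4b did not pass, and their hAEC and hAMSC libraries do not overlap within either set.

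The genes of next smallest p that were lower with hAEC did not pass. Gda, the guanine deaminase of purine breakdown, was at 177 and 180 CPM with hAEC against 212 and 215 CPM with hAMSC in set A, and at 42.0 and 39.6 against 62.4 and 55.4 CPM in set B. The log2 difference of Gda was -0.39 (SE 0.065, edgeR adjusted p = 0.0681), and vehicle (188, 177, 38.3 and 41.4 CPM) lay near hAEC. Sema4b, a transmembrane semaphorin, had a log2 difference of -0.27 (SE 0.047, edgeR adjusted p = 0.0681). Its hAEC libraries (35.1, 36.8, 29.0 and 27.9 CPM) were below both hAMSC (43.8, 42.1, 35.7 and 33.6 CPM) and vehicle (39.2, 41.9, 32.6 and 31.0 CPM) in each set.

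Among genes with higher values with hAEC, 5 had the smallest p and none passed. Cebpa, a transcription factor of myeloid differentiation, had a log2 difference of 0.32 (SE 0.055, edgeR adjusted p = 0.0681). Its hAEC libraries were at 108, 104, 338 and 363 CPM, in the order 3, 4, 11 and 12, and its hAMSC libraries at 91.7, 76.1, 274 and 294 CPM, in the order 7, 8, 15 and 16. Axl, a receptor tyrosine kinase used in the uptake of dying cells, was at 463 and 466 against 426 and 409 CPM in set A and 616 and 599 against 526 and 523 CPM in set B (log2 0.18, SE 0.034, edgeR adjusted p = 0.0842). Arhgef40, a guanine nucleotide exchange factor gene, had a log2 difference of 0.29, and Rgs1, which shortens signalling of G protein-coupled receptors, one of 0.27. Fcrl2, an Fc receptor-like gene, was measured almost only in set B, where hAEC (213 and 215 CPM) lay between hAMSC (162 and 163 CPM) and vehicle (244 and 236 CPM). Its libraries of set A were all under 1 CPM. All 7 of these genes passed when hAMSC 7 was left out (edgeR adjusted p between 0.00357 and 0.0444), Gda also without vehicle 19 (0.0443) and Fcrl2 without hAEC 4 (0.0214).

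**Figure D2:**
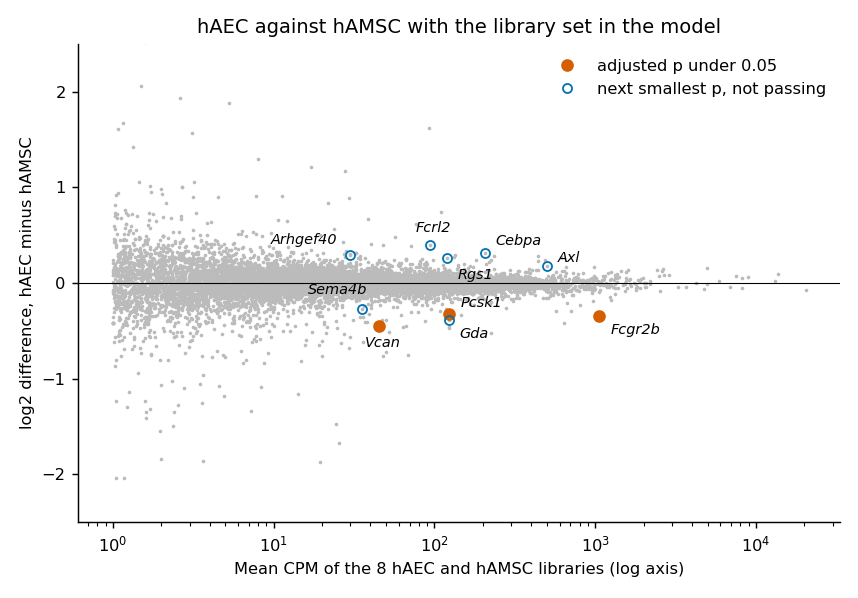
Log2 difference, hAEC minus hAMSC with the library set in the model, against mean CPM of the 8 libraries on a log axis. Each grey point is a gene of at least 1 CPM, and genes beyond the vertical axis are not drawn. The 3 filled points passed and lie below 0, and the 7 open circles did not pass. The circles make up 5 named genes of smallest p in each direction. Other lower genes, such as Mcoln2, had a smaller p than some circled genes and are not marked.

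Both hAEC libraries lay above both hAMSC libraries in set A and again in set B for 500 genes (3.69% of genes tested), and below them for 519 genes (3.83%), or for 1019 in all (7.53%). By smallest p, these genes included several with the pattern of Pcsk1, in which hAMSC stood above vehicle and hAEC lay nearer to vehicle. Choosing genes for hAMSC above hAEC favours that order, and the share of all genes with it was not counted. Cd200, the ligand of an inhibitory receptor on myeloid cells, was at 48.4, 45.7, 16.3 and 16.4 CPM with hAEC and 57.8, 58.3, 19.8 and 23.3 CPM with hAMSC (log2 -0.35, edgeR adjusted p = 0.0842). Against vehicle Cd200 rose with hAMSC (0.50, edgeR adjusted p = 0.00496), and its value with hAEC was 0.14. Mcoln2, a cation channel of endolysosomes (-0.31), Sdc3, a heparan sulfate proteoglycan (-0.29), and Ptpn1, a tyrosine phosphatase (-0.20), had the same order of groups by their log2 differences. Ly75, an endocytic receptor (-0.40), Galnt6, which starts mucin-type glycans (-0.19), and St3gal4, a sialyltransferase (-0.23), were also lower with hAEC in each set. Pid1, whose product carries a phosphotyrosine interaction domain, was higher with hAEC (0.24). None of these passed over all genes (edgeR adjusted p between 0.0749 and 0.108). Except for Ptpn1, they passed when hAMSC 7 was left out (edgeR adjusted p between 0.00496 and 0.0444), and Ly75 also without vehicle 19 (0.0206).

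Most genes of the ATF4 amino acid response had higher values with hAEC, with no single gene passing. ATF4 is a transcription factor whose translation increases when amino acids run short or proteins misfold, and its targets make, import and load amino acids onto transfer RNA. Of the 24 members tested, 18 had values above 0, with a median log2 difference of 0.11, beside 50% of all genes tested and a median near 0. The hAEC and hAMSC libraries did not overlap in either set, hAEC being higher, for 11 of 24 members, beside 3.69% of all genes tested, and for none in the other direction. The median was 0.11 in set A and 0.12 in set B. With hAEC the list's median stood at -0.01 against vehicle, and with hAMSC at -0.08, 2 comparisons that share the vehicle libraries.

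Atf4 itself was at 559, 576, 334 and 322 CPM with hAEC and at 520, 520, 295 and 298 CPM with hAMSC (log2 0.14, SE 0.031). The vehicle libraries (579, 573, 332 and 316 CPM) lay at the level of hAEC. Sesn2, a sestrin that restrains mTORC1 when leucine is low, was at 99.9 and 105 against 93.4 and 92.1 CPM in set A and at 68.9 and 72.6 against 59.9 and 56.2 CPM in set B. Its log2 difference was 0.21 (SE 0.043, edgeR adjusted p = 0.106), and it passed within set B (0.29, edgeR adjusted p = 0.0437). Against vehicle, Sesn2 fell with hAMSC (-0.25, edgeR adjusted p = 0.0277), beside -0.03 with hAEC.

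Enzymes and carriers of the list lay on both sides of 0. Asns, asparagine synthetase, had a log2 difference of 0.17, Mthfd2 of mitochondrial folate metabolism one of 0.18, and Phgdh, the first enzyme of serine synthesis, one of 0.25. Slc7a5 (0.15) and Slc7a1 (0.16) import large neutral and cationic amino acids. The glutathione-degrading enzyme Chac1 (0.33), the pseudokinase Trib3 (0.21) and the lipoprotein receptor Vldlr (0.32) were higher as well. Chac1 was at 16.4, 17.5, 5.67 and 6.75 CPM with hAEC and 14.8, 13.5, 4.72 and 4.58 CPM with hAMSC. None of these 8 passed over all genes (edgeR adjusted p between 0.108 and 0.49). The cystine carrier gene Slc7a11 (-0.09), the transfer RNA synthetase gene Wars (-0.04), Shmt2 of mitochondrial folate metabolism (-0.02) and Psph, the last enzyme of serine synthesis (-0.01), were below 0, and the synthetase genes Sars and Aars were at most 0.01. The 6 members below 0 reached no lower than -0.15.

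The upstream sequences of Chac1 and Trib3 are shown because they hold the element that ATF4 binds with C/EBP partners; both genes were chosen after their values were seen. The letters TGATGNAA were searched on both strands in the 250 bases before each annotated start. A match was held by 3.4% of 33469 promoters and, counting a gene by any of its starts, by 3.58% of 27457 genes. Of the 19 ATF4 list members with an entry, 3 held it, namely Chac1, Trib3 and Slc7a1. A match is a description of the letters and not evidence of binding. The matching bases are in capitals and begin 167 bases before the start of Chac1 (GRCr8, chr3:126795881-126796130, plus strand) and 21 bases before that of Trib3 (GRCr8, chr3:161275534-161275783, minus strand), both from RefSeq and written 5′ to 3′.
Chac1: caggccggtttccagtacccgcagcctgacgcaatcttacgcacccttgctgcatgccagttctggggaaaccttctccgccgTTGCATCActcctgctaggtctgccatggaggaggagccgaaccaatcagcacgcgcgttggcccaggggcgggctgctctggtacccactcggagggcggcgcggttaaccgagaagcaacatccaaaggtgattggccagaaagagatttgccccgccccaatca
Trib3: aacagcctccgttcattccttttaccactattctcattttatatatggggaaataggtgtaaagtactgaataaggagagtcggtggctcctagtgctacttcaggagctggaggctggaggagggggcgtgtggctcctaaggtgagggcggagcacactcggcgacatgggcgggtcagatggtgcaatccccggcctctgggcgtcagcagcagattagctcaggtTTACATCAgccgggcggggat

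The NRF2 and glutathione list, genes that a transcription factor of oxidative stress controls, had 20 of 27 members above 0 (median 0.05). Gstp1, a glutathione transferase, was at 740.5, 775.5, 1295 and 1310 CPM with hAEC, against 668.5, 645.1, 1207 and 1184 CPM with hAMSC (log2 0.17, SE 0.033, edgeR adjusted p = 0.107). Its vehicle libraries were the highest of each set (803.1, 813.3, 1461 and 1396 CPM). Gsta1 (0.19), the quinone reductase gene Nqo1 (0.12), the biliverdin reductase gene Blvrb (0.09) and the ferritin heavy chain gene Fth1 (0.10) also had hAEC libraries above hAMSC libraries in each set. Hmox1, haem oxygenase, was at 2516 and 2627 against 2183 and 2186 CPM in set A, and its libraries overlapped in set B (log2 0.14, 0.24 in set A and 0.04 in set B). Me1, malic enzyme, was the member with the smallest p in the other direction (-0.11).

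Endothelial markers were mostly lower with hAEC, by more in set B than in set A. Of 23 tested, 21 were below 0, with a median log2 difference of -0.34, which was -0.08 in set A and -0.62 in set B. The exceptions were Dnase1l3 (0.05) and Bmp2 (0.04). The summed level of these 23 markers was 781.9 to 807.2 CPM with hAEC and 767.7 to 933.1 CPM with hAMSC in set A, where the groups overlapped. In set B it was 459.9 to 470 CPM with hAEC and 568.7 to 639.4 CPM with hAMSC, without overlap, and vehicle was at 474.3 to 482.5 CPM. In set A vehicle was at 871.7 to 922.3 CPM.

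None of the 23 passed with the set in the model. Within set B alone 7 of 23 passed, all lower with hAEC, beside 0.487% of all genes tested. Kdr, the receptor of vascular endothelial growth factor, was at 19.5, 23.7, 11.2 and 10.9 CPM with hAEC and 24.3, 32.6, 20.4 and 18.4 CPM with hAMSC (log2 -0.61, SE 0.154, edgeR adjusted p = 0.332). Kdr passed when hAMSC 7 was left out (edgeR adjusted p = 0.0104) and in no other fit that left out 1 library, with values up to 0.70. Stab2, a scavenger receptor of sinusoidal endothelium, had a log2 difference of -2.04, but all its libraries were under 3 CPM and hAEC 12 was at 0. The lectin gene Clec4g was at 0 in the same library and below 1 CPM in all others, and Cldn5, a junction protein, was at 0 in 6 of the 12 libraries. Esam, a junction protein, was at 5.61 and 5.57 CPM with hAEC in set B and at 11.8 and 9.09 CPM with hAMSC there, a log2 difference of -0.90 (edgeR adjusted p = 0.00157) beside -0.19 in set A. Gata4, a transcription factor of sinusoidal endothelium, had a log2 difference of -0.996 in set B (edgeR adjusted p = 0.00323) and -0.01 in set A. Lyve1, a hyaluronan receptor, was at 3.16 and 3.12 against 10.8 and 7.99 CPM in set B (log2 -1.58, edgeR adjusted p = 0.0392), and overlapped in set A (87.5 and 85.5 against 83.3 and 117 CPM). Egfl7 (-0.45), Erg (-0.50) and Eng (-0.34) were below 0 over both sets.

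**Figure D3:**
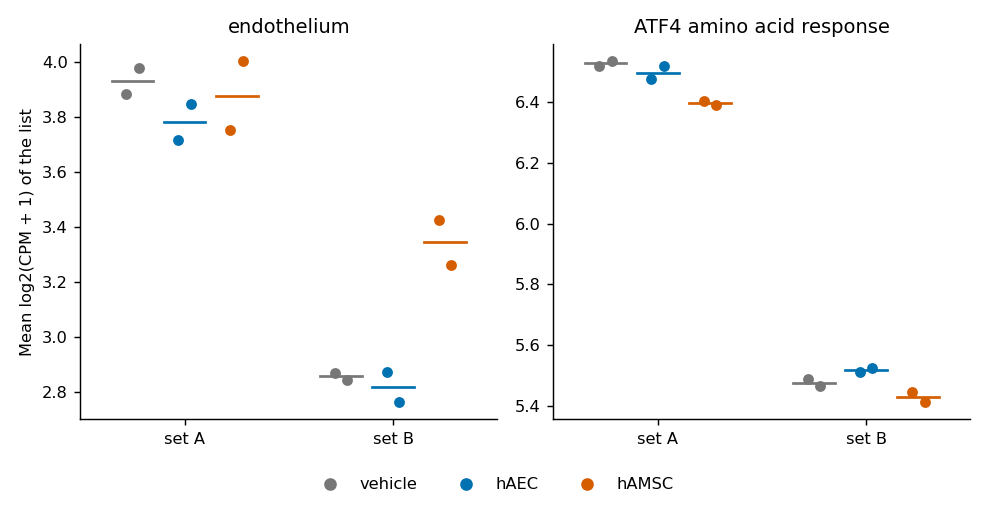
Mean log2(CPM + 1) of the tested endothelial markers and of the tested ATF4 response genes in each library (points), by library set and group, with the mean of the 2 libraries as a bar. In set B the hAMSC libraries lie highest for endothelium, and in both sets they lie lowest for the ATF4 list.

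In a fit with the mean level of the markers as a further term, chosen after the data were seen, 2 genes were called, of which 1 was among the original 3. There Vcan had a log2 difference of -0.54 (edgeR adjusted p = 0.00856), Pcsk1 of -0.29 (0.109) and Fcgr2b of -0.22 (0.271). The part of endothelial cells in these differences was not tested.

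Within set B alone, 74 genes differed (0.547% of genes tested) by the quasi-likelihood test of edgeR, 8 higher (0.0591%) and 66 lower (0.487%) with hAEC. Within set A none did, with 565 (4.17%) at an unadjusted p under 0.05. Fitted in separate models, set A gave 1 and set B 58. Of the 66 lower genes, 56 had values below 0 in set A, where 49.5% of all genes tested were above 0. In all 66 both hAMSC libraries of set B stood above both vehicle libraries of set B, and in 40 the hAEC and vehicle libraries overlapped. The share of all genes with either pattern was not counted, so the 40 do not show hAEC at the level of vehicle. These genes were chosen for hAMSC above hAEC in set B, which favours hAMSC above vehicle as well.

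The genes of the 66 named next were picked after their values were seen, so that they stand for no group. Adgrl4, an adhesion receptor of endothelial cells, was at 5.02 and 4.80 CPM with hAEC and 11.9 and 11.99 CPM with hAMSC in set B, with vehicle at 5.61 and 5.41 CPM (log2 -1.28, edgeR adjusted p = 0.000159). Clec14a (-1.39), Gpr182 (-1.28), Ehd3 (-1.08) and Adgrf5 (-1.18), which are known from vascular or sinusoidal endothelium, were lower in set B as well. The GTPase gene Rhoj was at -1.29. Edn1, the vasoconstrictor endothelin-1, was at 7.83 and 6.59 CPM with hAEC, 16.9 and 13.8 CPM with hAMSC and 7.55 and 7.82 CPM with vehicle in set B (log2 -1.09, edgeR adjusted p = 0.00142). In set A the groups overlapped (7.92 and 7.88 against 6.91 and 8.64 CPM).

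Il6st, the signalling chain gp130 of several cytokine receptors, was at 59.3 and 54.0 against 97.2 and 81.6 CPM in set B (log2 -0.66, edgeR adjusted p = 0.0196). The receptor genes Lifr (-1.50) and Osmr (-0.97) and the cytokine signalling inhibitor gene Socs3 (-1.27) were lower with hAEC in set B too, all under 7 CPM there. Kcnj8 (-2.10) and Abcc9 (-2.32), the 2 subunits of a potassium channel of mural cells, were at most 3.15 CPM in set B. Dmbt1, a secreted scavenger protein, was at 2.19 and 1.27 against 10.99 and 9.79 CPM (log2 -2.59). The aldo-keto reductase gene Akr1cl (-1.85), the ectonucleotidase gene Enpp3 (-0.90), the metallothionein gene Mt2A (-1.52) and Cyp4f5 (-1.52), a cytochrome P450, fell in set B likewise. All genes named in this paragraph passed within set B by edgeR's test (adjusted p between 0.000159 and 0.0274). Endothelial levels moved with them, as given above, and their part in the differences within set B was not tested. Over both sets Adgrl4, Gpr182, Dmbt1, Akr1cl, Osmr and Abcc9 passed when hAMSC 7 was left out (edgeR adjusted p between 0.00496 and 0.0432). They passed in no other fit that left out 1 library.

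Of the 8 genes higher with hAEC in set B, 7 were above 0 in set A, beside 49.5% of all genes tested. Kcna3, a potassium channel of activated leukocytes, was at 17.9 and 19.4 CPM with hAEC, 11.2 and 11.3 CPM with hAMSC and 13.6 and 14.8 CPM with vehicle in set B (log2 0.73, edgeR adjusted p = 0.00132). Rgs1 (0.37), Olr1, a scavenger receptor for oxidised lipoprotein (0.32), Mylip, a ligase that degrades lipoprotein receptors (0.30), Fcrl2 (0.40), Sesn2 and the class II antigen-presenting gene RT1-Ba (0.23) passed there too. RT1-Ba had a value of -0.02 in set A. Over both sets Kcna3 (0.43) passed when hAMSC 7 was left out (edgeR adjusted p = 0.00672) and in no other fit that left out 1 library. The remaining 1 has a provisional symbol and was near 1 CPM.

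**Figure D4:**
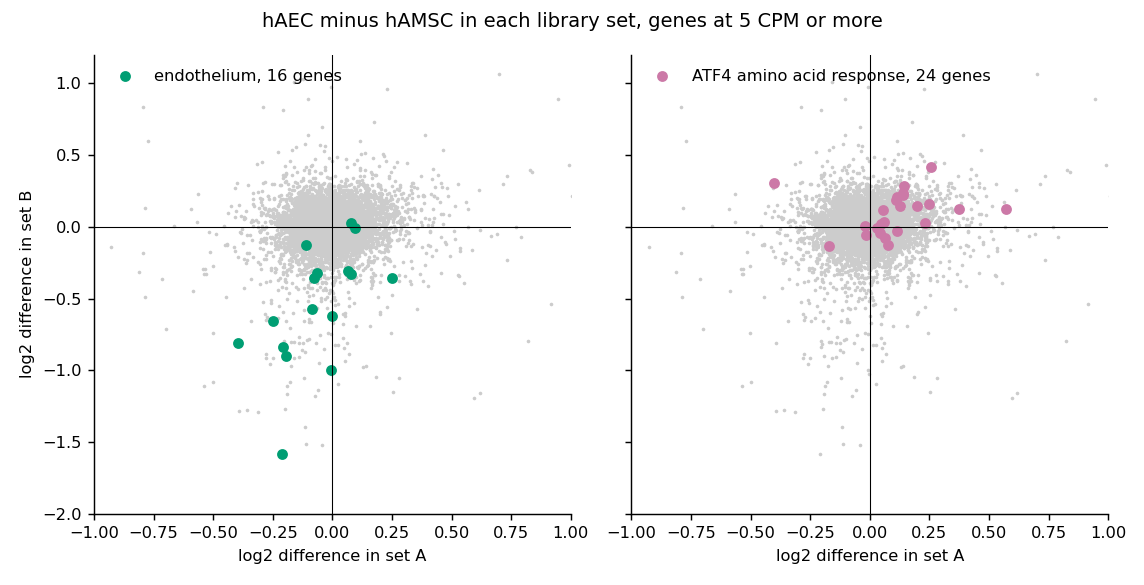
Log2 difference, hAEC minus hAMSC, in set B against that in set A for genes of at least 5 CPM (grey; genes beyond the axes are not drawn), with the endothelial markers and the ATF4 response genes at that level in colour. Endothelial genes spread downward in set B and stay nearer 0 in set A, whereas ATF4 genes lie mostly above 0 in both.

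The difference between the sets was itself tested. For the contrast of hAEC against hAMSC in set B minus that in set A, no gene passed by the quasi-likelihood test of edgeR. There 704 genes (5.2% of genes tested) had an unadjusted p under 0.05, and DESeq2 called 33. The larger number of calls in set B is therefore not shown to be a difference between the sets. Enpp3 (adjusted p = 0.0706), Adgrl4, Mt2A and Edn1 (each 0.0887) came nearest among the genes named here. The 2 sets share no library, and fitted separately they gave the same sign for 51.6% of the 12987 genes tested in both. Of the 691 genes with an unadjusted p under 0.05 in set A, 64% had the same sign in set B, and of the 846 in set B, 65.1% had the same sign in set A.

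Of the macrophage markers, 11 of 16 tested members were above 0, with a median of 0.02, and none passed. Cd163, the scavenger receptor for haemoglobin bound to haptoglobin, was at 109 and 112 against 123 and 178 CPM in set A and 98.7 and 96.0 against 138 and 135 CPM in set B. It did not pass (log2 -0.47, SE 0.090, edgeR adjusted p = 0.138). Among the fits that left out 1 library it passed only without hAMSC 7 (log2 -0.57, edgeR adjusted p = 3.47e-05). Against vehicle Cd163 rose with hAMSC (0.61, edgeR adjusted p = 0.0277). Lysozyme Lyz2 (0.16), Aif1 (0.11) and the splenic macrophage factor gene Spic (0.18) were higher with hAEC and did not pass. The Kupffer cell list had 7 of 18 members above 0 (median -0.07) and the scar-associated macrophage list 4 of 15 (median -0.04), with values of 0.15 for the lipid carrier Apoe and -0.07 for Gpnmb, its most abundant member.

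No member of the inflammatory and immune lists passed over both sets. The list of cytokines and NF-kB targets had 10 of 32 members above 0 (median -0.04), and its members of smallest p were Sod2, mitochondrial superoxide dismutase (-0.19), the adhesion molecule gene Icam1 (-0.11) and Bcl3, a nuclear modulator of NF-kB (-0.16). Sod2 rose with hAMSC against vehicle (0.24, edgeR adjusted p = 0.0474), beside 0.05 with hAEC. Cx3cr1, the fractalkine receptor, was at 54.3 and 58.8 CPM with hAEC and 33.4 and 27.5 CPM with hAMSC in set B (log2 0.89, edgeR adjusted p = 0.064) and under 0.3 CPM in set A. Over both sets Cx3cr1 (0.84) passed only when vehicle 18 was left out (edgeR adjusted p = 0.0392), among the fits that left out 1 library. The chemokine gene Ccl6 was lower with hAEC (-0.23) and the receptor gene Cxcr4 higher (0.15). Among complement genes, the anaphylatoxin receptor C3ar1 was at 0.20 and properdin (Cfp) at -0.14, with 12 of 22 members above 0. The co-stimulatory receptor gene Cd40 was at -0.48, with 10 of 20 antigen presentation genes above 0. Among the fits that left out 1 library, Cxcr4 passed only without hAMSC 7 (edgeR adjusted p = 0.0394), beside 0.877 without hAMSC 8. Interferon genes had 18 of 31 above 0, and Ifitm3 was at -0.26.

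Lipid lists lay at or slightly below 0. Cholesterol synthesis had 7 of 24 members above 0 and a median of -0.03, with Sqle at -0.08 and Cyp51 at 0.02. Both co-cultures were above vehicle in this list by a median of 0.11 with hAEC and 0.12 with hAMSC, 2 values that share the vehicle libraries. Fatty acid synthesis had 6 of 13 above 0, with Fasn at -0.15 and Elovl1 at -0.08, and lipid uptake and storage 6 of 17, with the lipid droplet gene Plin2 at -0.15, Msr1 at -0.10 and Cd36 at -0.09. The list of cholesterol efflux had 8 of 14 above 0 and Mylip (0.24) as its member of smallest p. The lysosomal list had 10 of 30 above 0, with the channel gene Mcoln3 at -0.23 and progranulin (Grn) at -0.09. Chaperones of the endoplasmic reticulum had 4 of 22 above 0 (median -0.05), with Hspa5 at -0.08 and Hsp90b1 at -0.07.

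The median members of the contractile, quiescence and matrix lists were low, at 1.82, 0.643 and 1.69 CPM. The sums of these lists were higher, as given above. No member but Vcan passed. Acta2 was at 2.46, 2.33, 3 and 2.42 CPM with hAEC and 0.802, 0.892, 1.42 and 2.53 CPM with hAMSC, a log2 difference of 0.98 (SE 0.253, edgeR adjusted p = 0.239). Vehicle libraries of set A were near hAMSC (0.939 and 1.003 CPM) and those of set B near hAEC (2.40 and 2.38 CPM). The difference of Acta2 was 1.497 in set A and 0.46 in set B. The collagen genes Col1a1 (-0.03, SE 0.418) and Col3a1 (0.01, SE 0.287) and the protease inhibitor gene Timp1 (-0.002, SE 0.085) had no settled direction, as their sign changed between settings. Tgfb1, the profibrotic growth factor, was at 0.07. The contractile list had 9 of 17 members above 0, with Csrp1 at -0.14, and the matrix list 19 of 31, with Col6a2 at 0.70 near 1 CPM. The quiescence list had 8 of 11, with the growth factor gene Hgf at 0.21. The medians of these lists lay above 0 in set A and below 0 in set B. They were 0.195 and -0.0234 for the contractile list, 0.228 and -0.127 for matrix, and 0.131 and -0.0393 for quiescence.

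Matrix turnover genes had 8 of 25 members above 0 (median -0.06). Mmp9, a gelatinase, was at 432, 434, 71.4 and 84.1 CPM with hAEC and 486, 538, 99.3 and 90.6 CPM with hAMSC (log2 -0.26, SE 0.072, edgeR adjusted p = 0.369). Adamts4, a protease that cleaves versican, was at 12.5 and 14.7 against 16.2 and 22.2 CPM in set A and 1.30 and 1.21 against 2.63 and 2.71 CPM in set B. It passed within set B (log2 -1.08, edgeR adjusted p = 0.0362) and not over both sets (-0.73). Of TGF-beta family genes, 15 of 32 were above 0. The co-receptor gene Tgfbr3 was at 7.49, 7.47, 5.64 and 4.71 against 8.797, 12.95, 11.3 and 11.1 CPM (log2 -0.84, edgeR adjusted p = 0.140), the receptor gene Tgfbr1 at 0.27 and the transducer gene Smad3 at -0.16. Without hAMSC 7, Tgfbr3 (edgeR adjusted p = 0.00206), Tgfbr1 (0.00206) and Adamts4 (0.0432) passed over both sets. They passed in no other fit that left out 1 library. Vasoactive genes had 6 of 19 above 0 (median -0.10), with the adenosine-forming enzyme Nt5e at -0.53 and the endothelin-converting enzyme Ece1 at -0.15.

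**Figure D5:**
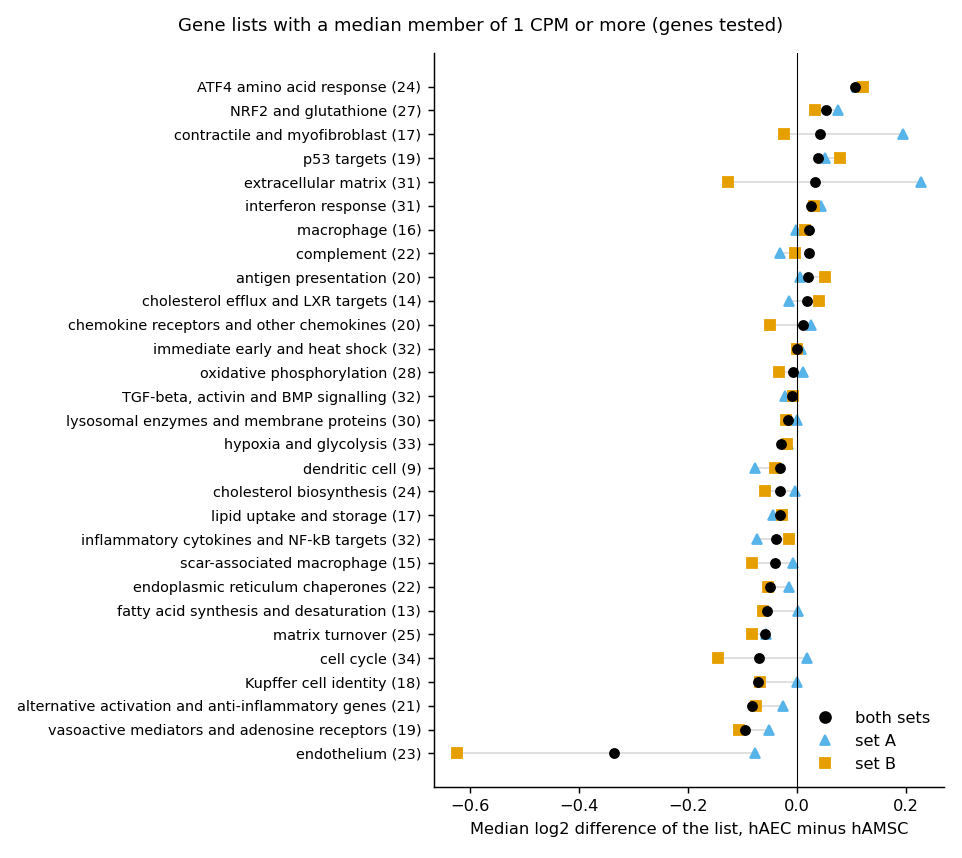
Median log2 difference, hAEC minus hAMSC, of each gene list whose median member was at 1 CPM or more, over both sets (circles), in set A (triangles) and in set B (squares), with the number of genes tested in brackets. The endothelial list lies lowest, at -0.34, and the ATF4 list highest, at 0.11.

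Cell cycle genes had 8 of 34 members above 0, with a median of 0.02 in set A and -0.14 in set B. The mitotic kinase Aurka was at 0.20, E2f1 at -0.19 and the cyclin Ccnd1 at -0.20. The hypoxia and glycolysis list had 13 of 33 above 0, with Pfkfb3 at -0.09 and Hif1a at -0.11, and oxidative phosphorylation 12 of 28. Immediate early and heat shock genes were split evenly, 16 of 32, with Fos at 0.41 and Dusp2 at 0.20. The list of p53 targets had 13 of 19 above 0, with the death receptor gene Fas at 0.35. Trpc6, a calcium channel gene, was at 8.97, 8.73, 73.1 and 68.4 CPM with hAEC and 6.56, 7.87, 59.9 and 60.6 CPM with hAMSC (log2 0.26, SE 0.058, edgeR adjusted p = 0.144). Its vehicle libraries (6.97, 6.597, 55.2 and 59.3 CPM) lay at the level of hAMSC, the reverse of the order seen for Pcsk1.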

How the data were processed

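The authors deposited 1 table of expected counts a library. FastQC, Trim Galore, STAR, RSEM and limma are named, per the submitters' processing notes, beside the builds rn6 and Rnor_6.0; no version or role is given there. Per the labels' protocols, polyadenylated RNA was made into libraries with a stranded TruSeq kit. After rounding to whole numbers, edgeR 4.0.16 (R 4.3.3; filterByExpr, TMM, robust quasi-likelihood fit, Benjamini-Hochberg, threshold 0.05, two-sided) was run over all 12 libraries, with group and library set as terms. The step was tested on simulated data. CPM are TMM-scaled. Within-set values and the difference between sets come from a fit of group by set means. List levels used a pseudocount of 1.

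The members and the 36 gene lists were chosen with earlier results of these data known. Named genes are those passing, or 5 in each direction of smallest p, at 5 CPM or more and without a provisional symbol, up to 3 members of a list, and 10 fixed genes. Not every gene under this rule is reported here. Genes passing within set B or not overlapping in either set, and others where stated, were added after values were seen. Alternatives were other scalings and filters, DESeq2 1.42.0, limma 3.58.1 voom, fits without the set, within a set or on 8 libraries, and leaving out each library. Promoters of Pcsk1 and Fcgr2b were not used here.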

Additional observations from a re-analysis of the deposited data

Results flagged for a closer look

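For 2 genes, 1 library lay apart from the other 3 of its group by Dixon's criterion. Edn1 was at 6.586 CPM in hAEC 12, below the other hAEC libraries, and Hspa5 was at 661.3 CPM in hAMSC 7, below the other hAMSC libraries. The criterion puts about 1 in 20 groups apart by chance where values are independent draws. Each group here holds 2 libraries of each set, so that rate does not hold, and 369 groups were looked at.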

How the results depend on the processing

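With 3 genes called over both sets, the count was 0 without the set in the model, 0 within set A, 74 within set B, 26 with no expression filter (7 higher, 19 lower), 79 by DESeq2 (32 higher, 47 lower), 28 by limma voom with quality weights (9 higher, 19 lower) and 0 without the robust fit, where 917 genes had an unadjusted p under 0.05. It ran from 0 to 50 over the fits that left out 1 library. Scaling by library size alone gave 1 higher and 2 lower. Pcsk1 and Vcan passed in 17 of 26 alternatives each and Fcgr2b in 8, with log2 differences of -0.38 to -0.28, -0.54 to -0.33 and -0.50 to -0.19. For the difference between the sets, where 0 were called, no expression filter gave 260 (81 higher, 179 lower), DESeq2 33, and leaving out 1 library 0 to 27, the most without hAMSC 8. It was 4 without hAEC 3, 3 without hAEC 11, and 1 each without hAEC 4, hAMSC 7 or hAMSC 15. Without the filter, genes of few counts entered the test.

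The endothelial level as a covariate, chosen after the data were seen, turned the sign of Gata4 (0.0389), Lyve1 (0.000577), Clec14a (0.0672), Mt2A (0.0624), Cyp4f5 (0.0769), Edn1 (0.0272), Il6st (0.0437), Lifr (0.00961), Adgrf5 (0.0764), Col1a1 (0.175), Col3a1 (-0.0791), Timp1 (0.163) and Cyp51 (-0.0179). Gata4 and Lyve1 are themselves part of that level, which draws their values towards 0 by construction. Within set A alone the sign turned for Edn1 (0.0248), Col1a1 (0.775), Timp1 (0.0806), Cx3cr1 (-0.104), RT1-Ba (-0.0207) and Cyp51 (-0.00143), and within set B alone for Col3a1 (-0.137) and Bmp2 (-0.0077). Over the fits that left out 1 library, Col1a1 ran from -0.314 to 0.54, Col3a1 from -0.133 to 0.22, Timp1 from -0.0797 to 0.0678, Dnase1l3 from -0.016 to 0.112 and Bmp2 from -0.00206 to 0.138. Scaling by relative log expression turned Timp1 (0.000981), and voom with quality weights Col3a1 (-0.0483). The cause of the other turns was not tested. No paired analysis was possible because sample numbers are not shared between groups. With 2 libraries of a group in a set, within-set values rest on few libraries, and genes near 1 CPM on few counts.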

Other observations

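In the marker lists of other cell types no member passed with the set in the model. The summed levels of 3 of these lists came mostly from 1 gene each: Spp1 (osteopontin) at a mean of 2040 CPM over the 12 libraries in the epithelial list, Cd4 at 1020 CPM in the lymphocyte list and Tf (transferrin) at 643 CPM in the hepatocyte list. Epithelial Sox9 (0.0143 CPM) and the T cell gene Cd3d (0.133 CPM) were near 0. Hepatocyte markers had 8 of 9 tested members above 0, but their median member was at 0.211 CPM. The list's median log2 difference of 0.54 became 0.06 without hAEC 11 and -0.02 over members of at least 5 CPM. Lymphocyte markers had 3 of 11 above 0, at a median level of 0.676 CPM. Mesothelial and portal fibroblast markers had 3 of 8 above 0, with a median of 0.22 in set A and -0.34 in set B. Of neutrophil, epithelial and dendritic cell markers, 3 of 6, 4 of 7 and 3 of 9 were above 0, and of erythroid markers 2 of 2, at a median of 0.0088 CPM.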
